A study of Mus musculus with 4 samples.

Results

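Pipox, Tmigd1, Sez6, Fetub, Ahsg, Cyb5r2 and Limch1 were examined as a set of 7 genes among the 32285 genes counted in single cells of mouse mammary organoids. They were chosen by their measured counts in these same cells, as markers of a state of HR- luminal cells in earlier results, so their preference for that lineage, their co-expression and their library differences are given as descriptions and not as tests. HR- luminal cells are the hormone receptor-negative cells of the mammary ductal and alveolar lining, and were taken here as cells with under 300 CPM (counts of a gene scaled to the cell's total, where each count is a unique molecular identifier or UMI, a single transcript) of both Krt14, a basal keratin, and Areg, an amphiregulin ligand made by hormone receptor-positive cells. Basal cells had at least 500 CPM of Krt14, and HR+ luminal cells at least 300 CPM of Areg.

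Each of the 4 libraries was a single droplet capture of mammary epithelial organoids, grown from virgin female mice. The WT control library came from untreated wild-type organoids and the WT HU library from wild-type organoids exposed to hydroxyurea (HU), a drug that stalls DNA replication. The Brca2mut/WT control and Brca2mut/WT HU libraries came from organoids carrying a germline truncating mutation in 1 Brca2 allele, untreated or exposed to HU in the same way. All organoids had been frozen, thawed and cultured again before capture. The methods name an early and a late passage, and the labels give no passage, age or strain for a library. The labels name 2 replicates in each library, but the cells carry 4 antibody tags per library with no key, so that the 16 combinations of library and tag could only be used as unlabelled pools, which may differ in animal, replicate or passage. With 1 library per condition no difference between conditions could be tested. Intervals are exact Poisson 95% intervals for summed counts and exact Clopper-Pearson 95% intervals for shares, and cover counting error only.

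The mammary epithelium consists of an outer basal layer and an inner luminal layer, and the HR- luminal cells contain the progenitors that form milk-producing alveoli. The 7 genes are not milk genes, and most are better known from other organs. Fetuins are proteins of the cystatin superfamily that the liver secretes into blood, Pipox works in peroxisomes, the organelles that oxidise fatty acids and some amino acids, and Sez6 was described in neurons.

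In all 33268 cells together, 1062504699 gene UMIs were present. After removal of cells with fewer than 1000 or more than 6000 detected genes or with 5% or more mitochondrial UMIs, 17360 cells remained, of which 14008 were HR- luminal. There were 4209 HR- luminal cells in the WT control, 3457 in WT HU, 3592 in the Brca2mut/WT control and 2750 in Brca2mut/WT HU. Their median depth ran from 24718 to 27595.5 UMIs per cell, and that of basal cells from 20026 to 22130. Before any filter, 129 cell barcodes occurred in 2 libraries (258 cells), and the counts of members given below for lineages, library comparisons, correlation and cycling were the same when these cells were left out. The 7 listed HR- luminal markers, among them Elf5 and Kit, together reached 22979 to 27226 CPM in HR- luminal and 1891 to 2705 CPM in basal cells. Most of the HR- luminal sum came from the casein gene Csn3, at 18297 to 21471 CPM, and from Mfge8, at 4016 to 5025 CPM. The Areg-defined HR+ cells were only 112 to 159 per library and also carried 708 to 1803 CPM of 4 fibroblast markers, against 3.94 to 8.78 CPM in HR- luminal cells. Markers of hepatocytes, which make the most fetuin in the body, summed to 0.652 to 0.915 CPM in the HR- luminal cells.

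On GRCm38 with the GENCODE M21 annotation, 5 of the 7 genes lie in 2 regions. Pipox occupies chr11:77880615-77894096 on the minus strand, and Sez6 starts 36703 bases further on at chr11:77930800-77979048 on the plus strand, with only the lincRNA Gm11190 between them. Tmigd1 lies 964027 bases from Pipox at chr11:76902159-76916587 on the plus strand. Ahsg (chr16:22891277-22899449) and Fetub (chr16:22918334-22939778) are both on the plus strand and are separated by 18884 bases. Limch1 is at chr5:66745827-67057158 on the plus strand and Cyb5r2 at chr7:107748455-107758032 on the minus strand. Cyb5r2 overlaps Ppfibp2 on the other strand, Ahsg overlaps the antisense gene Gm30505, and Limch1 overlaps the antisense genes Gm15949 and Gm15948, so their counts are less certain than those of the other 4 genes.

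Promoter windows of 300 bases around the RefSeq transcription start (GRCm38.p6) were found for 6 of the 7 genes, and none for Sez6. The Ahsg window lies 738 bases from the annotated start and ends outside the gene's transcripts, so it was left out here. The 3 windows below are shown because their genes varied together over cells, while a TATA box was present in only 2 of them. They are written from 5′ to 3′ on the coding strand, and capitals mark TATAAA or CCAAT, on either strand (ATTGG is CCAAT read on the other strand). The Tmigd1 window is chr11:76901909-76902208 on the plus strand, the Fetub window chr16:22918132-22918431 on the plus strand and the Pipox window chr11:77893823-77894122 on the minus strand.
Tmigd1: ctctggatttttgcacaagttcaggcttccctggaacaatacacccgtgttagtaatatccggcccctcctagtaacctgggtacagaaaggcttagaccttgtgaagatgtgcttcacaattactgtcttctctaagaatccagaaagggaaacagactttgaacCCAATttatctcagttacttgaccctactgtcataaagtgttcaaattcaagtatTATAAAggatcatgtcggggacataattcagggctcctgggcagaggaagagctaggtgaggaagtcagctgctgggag
Fetub: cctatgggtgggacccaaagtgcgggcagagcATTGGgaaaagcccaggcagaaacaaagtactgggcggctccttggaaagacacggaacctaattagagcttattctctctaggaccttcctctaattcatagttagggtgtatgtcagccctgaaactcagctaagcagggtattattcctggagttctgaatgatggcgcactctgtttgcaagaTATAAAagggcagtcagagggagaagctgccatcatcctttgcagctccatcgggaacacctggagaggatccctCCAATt
Pipox: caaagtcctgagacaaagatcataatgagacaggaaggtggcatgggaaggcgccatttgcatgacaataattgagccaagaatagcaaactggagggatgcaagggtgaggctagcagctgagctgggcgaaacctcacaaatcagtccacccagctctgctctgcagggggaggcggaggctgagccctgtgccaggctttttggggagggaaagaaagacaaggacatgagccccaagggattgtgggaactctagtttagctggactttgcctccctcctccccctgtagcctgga
The Tmigd1 and Fetub windows hold a TATAAA whose first base is 29 and 31 bases before the start, and the Pipox window has neither motif. The RefSeq start of the Pipox window lies 224 bases from the annotated start, against 0 for Tmigd1 and 48 for Fetub. A motif before the annotated Pipox start could thus lie outside the window shown. TATAAA occurred in 13.6% and CCAAT in 37.4% of all 32851 RefSeq windows of this length. Further letters searched on both strands were TTCNNNGAA, GTTAAT and GCCNNNGGC, which occur in 8.30%, 7.10% and 16.6% of windows. Of these, only GCCNNNGGC was present in the other 5 windows, once in Limch1. The Limch1 window stood apart in composition, with 72.7% G and C and 35 CG pairs, where the median window has 52.7% and 7.

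All 7 genes were highest in the HR- luminal cells of every library, a pattern that 18.0% of the 9621 genes examined shared and that was part of how the set was chosen. Pipox, which encodes the peroxisomal oxidase of sarcosine and L-pipecolate, was at 55.3 CPM in HR- luminal cells of the WT control, 26.5 in WT HU, 59.3 in the Brca2mut/WT control and 65.6 in Brca2mut/WT HU. In basal cells of the same libraries it was at 10.6, 3.08, 6.85 and 9.40 CPM. Its level was thus 5.23 to 8.65 times as high in HR- luminal as in basal cells, and the HR+ cells held 0.798 to 11.3 CPM.

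Tmigd1 encodes an immunoglobulin-domain adhesion protein known from kidney and intestinal epithelium. Its HR- luminal level was 15.0 CPM in the WT control, 7.36 in WT HU, 111 in the Brca2mut/WT control and 43.1 in Brca2mut/WT HU, against 4.81, 3.76, 9.54 and 6.32 CPM in basal cells. The WT HU library therefore had only 1.96 times the basal level, and the Brca2mut/WT control 11.6 times. Sez6, a membrane protein with CUB and sushi domains, was at 30.2, 8.35, 57.1 and 56.7 CPM in HR- luminal cells in the same order, and at 9.49, 1.15, 5.66 and 8.70 CPM in basal cells.

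Fetub encodes fetuin-B, an inhibitor of the egg protease ovastacin, and Ahsg encodes fetuin-A, which binds calcium phosphate in serum. Fetub was at 12.5, 9.92, 74.2 and 38.0 CPM in HR- luminal cells of the 4 libraries in the order above, and at 3.14 to 7.02 CPM in basal cells. Ahsg was scarce, with 118, 46, 631 and 238 UMIs or 1.14, 0.536, 7.29 and 3.35 CPM in HR- luminal cells. In basal cells it had 2, 0, 2 and 4 UMIs, where the interval of the count of 0 in WT HU reaches 0.193 CPM. In all HR+ cells together it had a single UMI, in Brca2mut/WT HU.

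Cyb5r2, an NADH-dependent reductase of cytochrome b5, was at 4.98, 4.74, 18.5 and 15.4 CPM in HR- luminal cells, and 0.313 to 2.11 CPM in basal cells. Limch1, which binds and activates non-muscle myosin II, was at 12.6, 6.24, 20.7 and 16.5 CPM in HR- luminal cells, with 1.04 to 2.24 CPM in basal cells. In every library the HR- luminal interval of each member lay above the basal one. Within single pools this did not always hold. In tag 1 of the WT control Tmigd1 was at 4.56 CPM in HR- luminal and 7.83 CPM in basal cells, and Sez6 at 8.14 and 9.50 CPM. In tags 1 and 3 of the Brca2mut/WT control Tmigd1 was at 9.07 and 7.15 CPM, against 10.99 and 9.97 CPM in basal cells. The intervals overlapped in each of these cases. In tag 3 of the WT control Tmigd1 was at 5.01 against 3.06 CPM.

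**Figure D1:**
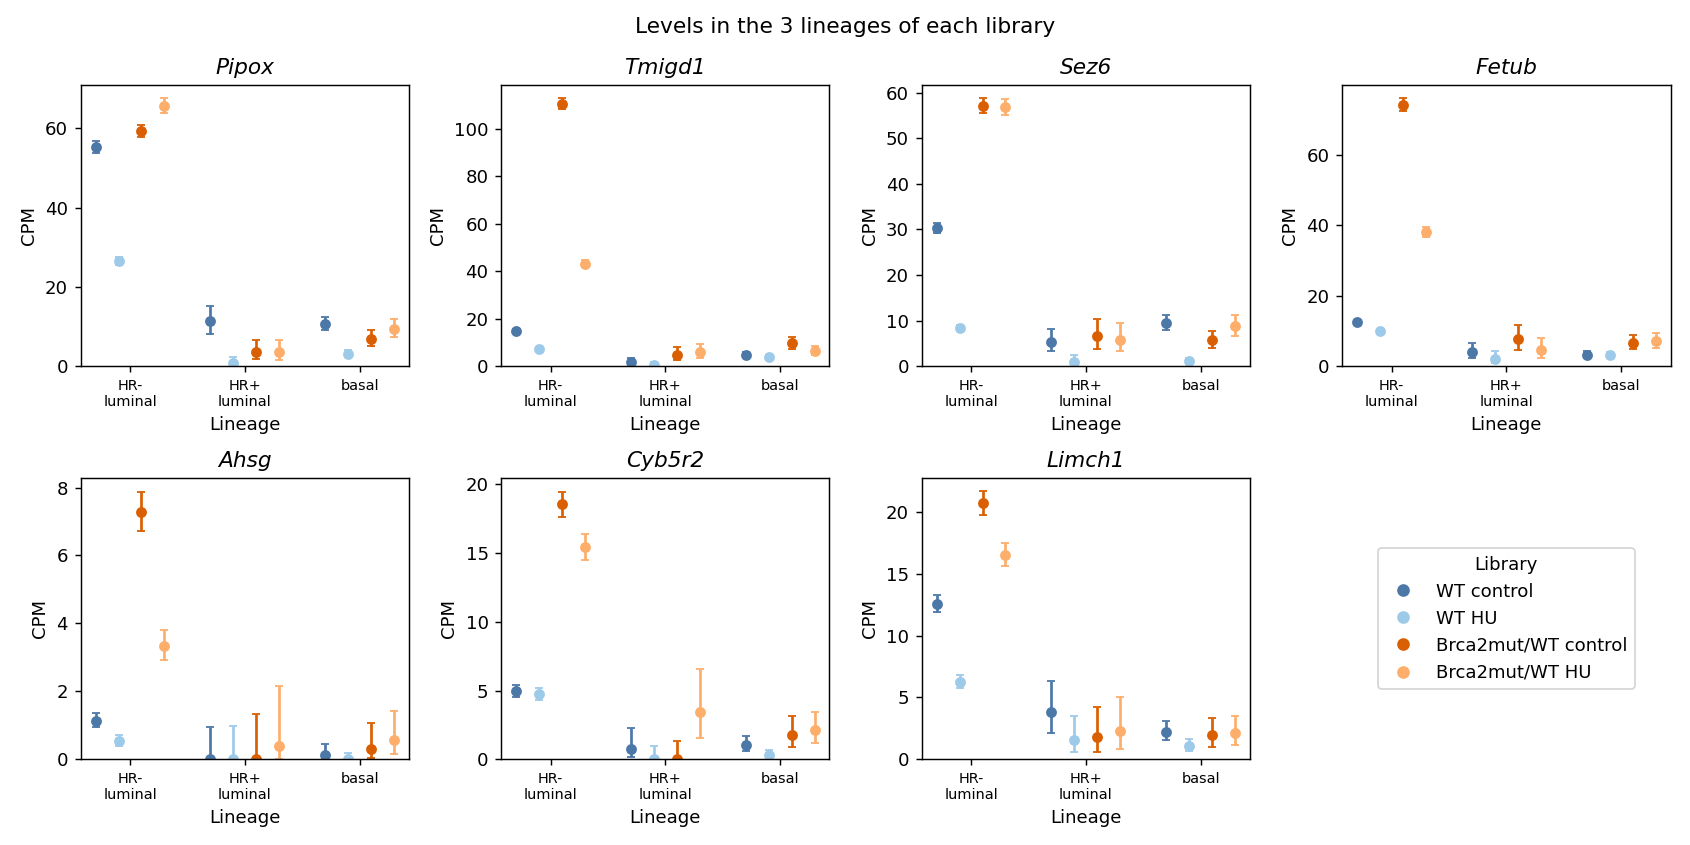
Level of each gene in CPM (linear axis) in HR- luminal, HR+ luminal and basal cells of the 4 libraries, with points for libraries and bars for exact Poisson 95% intervals. All 7 genes are highest in HR- luminal cells in each library, and the Brca2mut/WT control has the highest Tmigd1 level at 111 CPM.

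The share of cells with a transcript was compared after each cell had been thinned to 10000 UMIs, because HR- luminal cells were deeper. Pipox was detected in 21.8%, 13.9%, 23.6% and 22.0% of HR- luminal cells of the WT control, WT HU, Brca2mut/WT control and Brca2mut/WT HU, and in 5.88%, 2.31%, 5.04% and 5.45% of basal cells. Without thinning these shares were 35.2%, 23.9%, 35.1% and 36.3% against 13.7%, 5.41%, 8.13% and 13.8%. Basal cells serve here as the comparison, since the genes are not known as basal genes, and free RNA itself was not measured.

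For Tmigd1 the thinned shares were 8.21%, 5.37%, 25.2% and 15.0% in HR- luminal cells and 3.36%, 3.60%, 5.40% and 6.18% in basal cells. In WT HU the interval of 4.62 to 6.21% in HR- luminal cells overlapped that of 2.40 to 5.16% in basal cells. Overlap of separate intervals does not decide whether the shares differ, and their difference was not tested. The summed CPM of HR- luminal cells was above the basal one. In tag 4 of that library, the antibody tag with its highest value, Tmigd1 was at 30.5 CPM (26.6 to 34.7) in HR- luminal and 4.56 CPM (2.49 to 7.65) in basal cells. In its tag 1 the levels were 4.60 CPM (3.79 to 5.54) and 5.18 CPM (2.59 to 9.27). In its tags 2 and 3 they were 8.87 and 4.04 CPM in HR- luminal and 3.01 and 2.63 CPM in basal cells. The Sez6 shares in the WT control were 12.97% in HR- luminal and 8.74% in basal cells, closer than for Pipox, and in WT HU they were 4.91% and 0.386%.

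The comparison of HU with control asks how a past bout of replication stress alters these cells, and that of Brca2mut/WT with wild type how the loss of 1 Brca2 allele does. A gene was counted as higher or lower from 1.5-fold, computed with 1 CPM added to both levels, and the fold changes printed here are ratios of CPM without that addition. In summed counts, fewer expressing cells and less RNA per cell cannot be told apart. Because the set was chosen with these library differences known, the counts below are read as values only.

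In wild-type organoids 4 of the 7 genes were lower after HU, and none was higher, where 0.717% of all genes tested were lower and 0.469% higher. Sez6 stood at 0.276 of its control level (95% interval 0.254 to 0.300), Pipox at 0.480 (0.457 to 0.504), Tmigd1 at 0.491 (0.447 to 0.539) and Limch1 at 0.497 (0.448 to 0.550). Fetub at 0.793 and Cyb5r2 at 0.952 stayed within the limit, as did Ahsg, whose ratio of 0.472 rests on 46 UMIs against 118. In untreated organoids 6 genes were higher in Brca2mut/WT than in wild type, against 0.571% of all genes. The ratios were 7.39 for Tmigd1 (6.9997 to 7.80), 6.41 for Ahsg (5.26 to 7.88), 5.92 for Fetub (5.58 to 6.29), 3.72 for Cyb5r2, 1.89 for Sez6 and 1.65 for Limch1. Pipox differed least, with a ratio of 1.07 (1.03 to 1.11).

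Within Brca2mut/WT organoids, 3 genes were lower after HU, against 0.759% of all genes, and none was higher, against 0.334%. Tmigd1 was at 0.389 of the control level (0.374 to 0.406), Ahsg at 0.460 (0.394 to 0.534) and Fetub at 0.513 (0.490 to 0.536). Sez6 at 0.993, Pipox at 1.11, Cyb5r2 at 0.832 and Limch1 at 0.799 were within the limit. With cells of over 6000 genes and under 10% mitochondrial UMIs kept as well, only 1 gene passed it. After HU all 7 genes were higher in Brca2mut/WT than in wild type, against 0.482% of all genes, with ratios from 2.47 for Pipox (2.35 to 2.60) to 6.79 for Sez6 (6.27 to 7.37). Each library enters 2 of these 4 comparisons. The library ranks also differed between members: Pipox was highest in Brca2mut/WT HU, Tmigd1, Fetub, Ahsg, Cyb5r2 and Limch1 in the Brca2mut/WT control, and Sez6 was equal in these 2 libraries within its intervals.

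The antibody tags split these library values into far more unequal pieces. In the Brca2mut/WT control the cells carrying tag 2 were 19.4% of the HR- luminal cells and held 83.6% of the UMIs of the 7 genes. In Brca2mut/WT HU tag 2 was 14.6% of the cells and held 76.4% of the UMIs. In the WT control, tag 4 held 43.6% of the UMIs in 9.34% of the cells and tag 2 18.8% in 4.32%. In WT HU no tag held more than 25.7% of the UMIs.

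Summed over the 7 genes, the HR- luminal level in tags 1, 2, 3 and 4 was 51.5, 495, 51.7 and 512 CPM in the WT control. It was 53.7, 84.2, 41.8 and 159.6 CPM in WT HU, 63.2, 1379, 43.1 and 97.7 CPM in the Brca2mut/WT control, and 58.0, 1269, 50.6 and 78.2 CPM in Brca2mut/WT HU. Tags 1 and 3 were low in all 4 libraries, from 41.8 to 63.2 CPM. Tag 1 was above tag 3 beyond the intervals in every library but the WT control. In the Brca2mut/WT control they were at 63.2 (60.2 to 66.4) and 43.1 (40.6 to 45.7) CPM. The high values lay in 4 pools, tags 2 and 4 of the WT control and tag 2 of both Brca2mut/WT libraries. HR- luminal cells without a single clear tag summed to 46.2 CPM in WT HU and to 150.3 to 250.8 CPM elsewhere.

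Pipox was at 25.2, 193, 23.4 and 202 CPM in tags 1 to 4 of the WT control and at 24.8, 37.6, 18.2 and 50.02 CPM in WT HU. In the Brca2mut/WT control it was at 21.6, 201, 11.9 and 28.8 CPM, and in Brca2mut/WT HU at 19.6, 322, 18.1 and 18.5 CPM. The 4 high pools thus held similar Pipox levels in both genotypes, from 193 to 322 CPM, and all other pools were at or under 50.02 CPM.

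Tmigd1 was less even among those 4 pools. It reached 480.3 CPM (470.3 to 490.4) in tag 2 of the Brca2mut/WT control and 253 CPM in tag 2 of Brca2mut/WT HU, but 94.4 and 48.5 CPM in tags 2 and 4 of the WT control. In tag 4 of WT HU it was at 30.5 CPM, and in the remaining 11 pools at 4.04 to 10.2 CPM. Its highest pool was 60.0 times the median pool, the widest range of the 7 genes, and the corresponding values were 44.3 for Ahsg, 30.2 for Sez6, 21.6 for Fetub, 14.0 for Cyb5r2, 12.9 for Pipox and 12.6 for Limch1.

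The fetuins were also uneven among these 4 pools, which are unlabelled and are not replicates of a genotype. Fetub was at 292 and 204 CPM in tag 2 of the Brca2mut/WT control and Brca2mut/WT HU, and at 22.2 and 49.97 CPM in tags 2 and 4 of the WT control. The remaining 12 pools ran from 5.46 to 26.6 CPM. Ahsg was at 28.7 and 17.7 CPM in the same Brca2mut/WT pools and at 1.16 and 7.38 CPM in the wild-type ones, with 6 and 86 UMIs. Sez6, by contrast, was at 233, 323, 111 and 137 CPM in these 4 pools in the same order, and Limch1 at 77.8, 80.002, 62.1 and 52.6 CPM. Cyb5r2 was at 65.8, 69.8, 11.4 and 14.8 CPM. Pipox, Sez6 and Limch1 were thus closer to each other among these 4 pools than Tmigd1, Fetub, Ahsg and Cyb5r2.

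**Figure D2:**
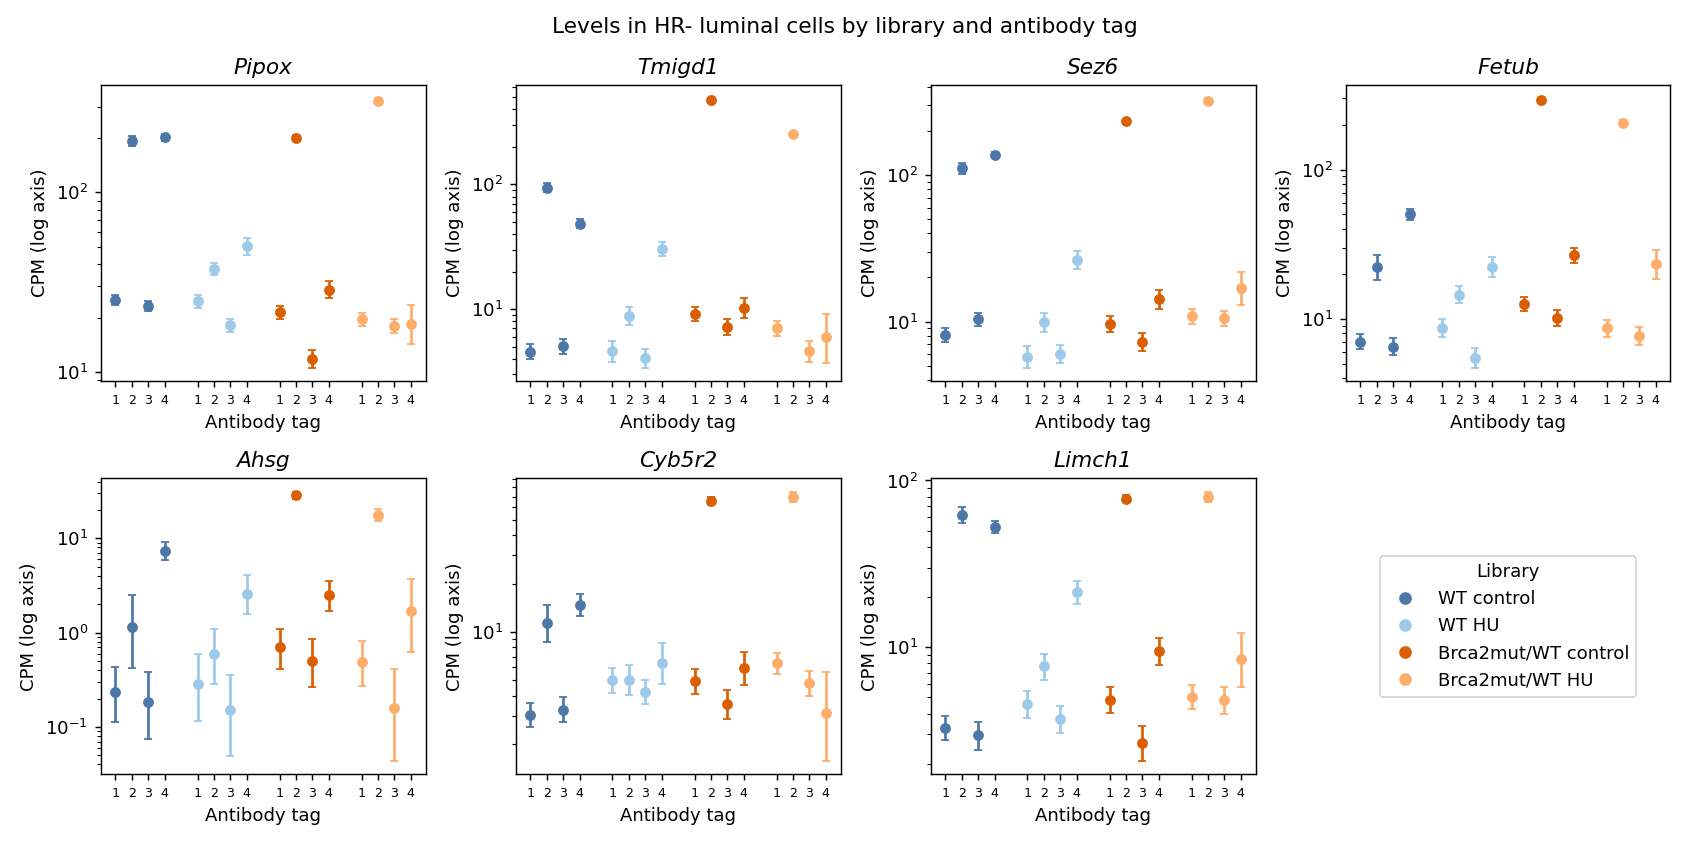
Level of each gene in HR- luminal cells (CPM, log axis) by antibody tag, with colours for libraries and bars for exact Poisson 95% intervals. Tag 2 of both Brca2mut/WT libraries is high for all 7 genes, tags 2 and 4 of the WT control are high for Pipox, Sez6 and Limch1, and tags 1 and 3 are low everywhere.

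All 7 genes were at least 2-fold above both tag 1 and tag 3 in tag 2 of the WT control (against 4.18% of all genes tested), in tag 4 of the WT control (2.37%), in tag 2 of the Brca2mut/WT control (4.89%) and in tag 2 of Brca2mut/WT HU (5.20%). In tag 4 of WT HU this held for 6 genes (1.97%), with Cyb5r2 at 6.42 CPM as the exception. In tag 4 of the Brca2mut/WT control (0.978%) and of Brca2mut/WT HU (3.59%) it held for 2 genes, Fetub and Ahsg, and in tag 2 of WT HU (1.09%) for Ahsg alone. Ahsg had only 10 UMIs in that pool, against 7 in tag 1. It had 6 UMIs in tag 4 of Brca2mut/WT HU and in tag 2 of the WT control. In these pools its interval overlapped that of tag 1. In both wild-type libraries Ahsg was under 10 CPM in every tag, the limit for genes in these shares.

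**Figure D3:**
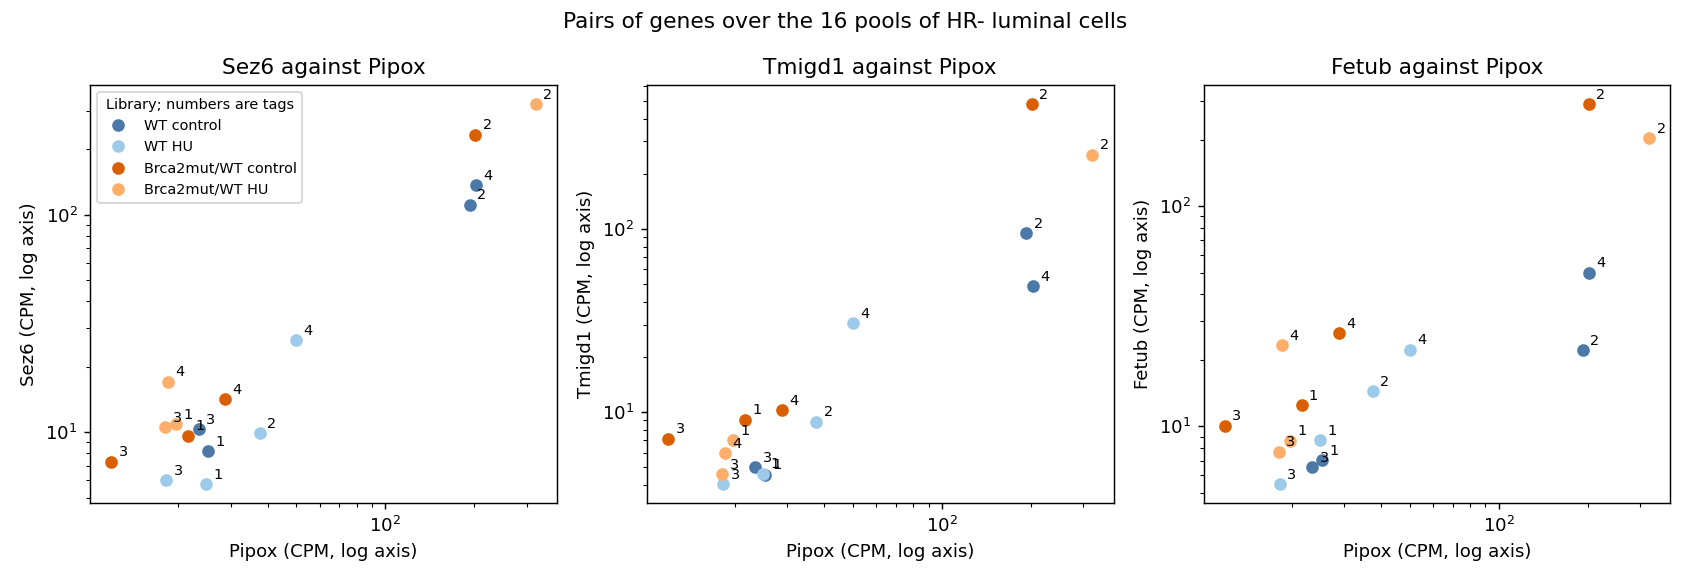
Level of Sez6, Tmigd1 and Fetub against Pipox (CPM, both axes logarithmic) in HR- luminal cells of the 16 pools, each point a pool labelled with its tag and coloured by library. The 4 pools with 193 to 322 CPM of Pipox stand apart from the other 12, and Tmigd1 and Fetub are higher in the Brca2mut/WT pools among them than in the wild-type ones.

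The pools differed in other measured ways too, whose part in the result was not tested. In tag 2 of the WT control 72.2% of kept cells were HR- luminal and in tag 4 51.8%, against 90.6 to 91.7% in tags 1 and 3. In tag 2 of the Brca2mut/WT control and HU libraries this share was 99.1% and 93.9%, and in the 4 low pools of tags 2 and 4 it was 51.2 to 67.6%. The median number of detected genes was 5139 to 5389 in the 4 high pools and 4549 to 5039 in tags 1 and 3 of those libraries, and the low tag 4 pools also had high values, from 5180 to 5221. Basal cells of the high WT control pools did not follow the HR- luminal level. The 7 genes summed to 16.7 CPM in 43 basal cells of tag 2 and to 28.0 CPM in 281 basal cells of tag 4. In tag 2 of Brca2mut/WT HU they summed to 78.1 CPM (47.0 to 121.9), the highest of the 16 basal pools, from only 11 basal cells. Tag 2 of the Brca2mut/WT control held a single basal cell and could not be judged.

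Summed identity markers differed between tags as well, and in low pools as far as in high ones. The 7 HR- luminal markers summed to 17640 and 17012 CPM in tag 2 of the Brca2mut/WT control and HU libraries, against 26188 to 29585 CPM in tags 1 and 3, and to 19468 and 19885 CPM in tags 2 and 4 of the WT control, against 31134 and 27622 CPM. They were lower still in 4 pools with low member levels, at 15749 and 12519 CPM in tags 2 and 4 of WT HU, 15695 CPM in tag 4 of the Brca2mut/WT control and 9284 CPM in tag 4 of Brca2mut/WT HU. Csn3 alone made up most of each sum, at 5388 to 24655 CPM over the pools. Within the list, the regulator Elf5 was at 81.9 to 91.3 CPM in the 4 high pools and at 90.0 to 126 CPM in tags 1 and 3 of their libraries. The milk fat globule gene Mfge8 was at 1744 and 1677 CPM in the Brca2mut/WT tag 2 pools and at 4723 to 5243 CPM in tags 1 and 3. Aldh1a3, a retinal dehydrogenase gene, was at 2.85 and 2.64 CPM there, against 17.7 to 29.8 CPM. Not every marker of the list was lower in every high pool. Kit was at 125 CPM in tag 2 of the Brca2mut/WT control, against 114 and 97.1 CPM in its tags 1 and 3. In the other high pools Kit was lower than in tags 1 and 3. Cd14 was at 177 CPM in tag 2 of the WT control, against 165 and 181 CPM in tags 1 and 3. Lalba was at 364 CPM in tag 4 of that library, against 399 and 338 CPM. The summed HR+ markers were at 229 to 314 CPM in the 4 high pools and at 136 to 169 CPM in tags 1 and 3 of those libraries. In the low pools they were at 178 and 255 CPM in tags 2 and 4 of WT HU and at 330 and 755 CPM in tag 4 of the Brca2mut/WT control and HU libraries. Different single genes made up much of these HR+ sums. In tag 2 of the Brca2mut/WT control and HU libraries Tbx3 was at 107 and 81.1 CPM and Ly6a at 19.6 and 17.9 CPM. In tag 4 of these libraries Tbx3 was at 10.2 and 12.8 CPM and Ly6a at 213 and 539 CPM. Both sums thus separated tags 2 and 4 from tags 1 and 3, and not the high pools from the others. Some single markers did separate the high pools. Mfge8 was at 1677 to 2911 CPM in the 4 high pools and at 3123 to 3555 CPM in the 4 low pools of tags 2 and 4. Tbx3 was at 48.7 to 107 CPM in the high pools and at most 22.8 CPM in all others. Others overlapped, such as Ly6a, at 17.9 to 110 CPM in the high pools and 56.4 to 539 CPM in those low pools. The part of these markers in the members' levels was not tested.

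Leaving out 1 pool changed most of the library differences. Without tag 2 of the Brca2mut/WT control, the count of genes past 1.5-fold between the untreated genotypes was 3 instead of 6, all lower in Brca2mut/WT. Without tag 4 of the WT control, the count for HU in wild type was 1 instead of 4. Without tag 2 of Brca2mut/WT HU, the count between the genotypes after HU was 0 instead of 7. In the cells of tags 1 and 3 alone, Pipox was at 24.4, 21.02, 16.7 and 18.9 CPM in the WT control, WT HU, Brca2mut/WT control and Brca2mut/WT HU. Tmigd1 was then at 4.77, 4.28, 8.10 and 5.88 CPM, and of the 7 genes Tmigd1 and Fetub were still past the limit, both higher, in the Brca2mut/WT control against the WT control. In the same cells none passed it after HU in either genotype, and Sez6 alone was higher in Brca2mut/WT than in wild type after HU, at 10.7 against 5.90 CPM. With the cells without a single clear tag added, Ahsg and Cyb5r2 also passed between the untreated genotypes, Sez6 was lower after HU in wild type, and Tmigd1 also passed between the genotypes after HU.

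Counted cell by cell, the 7 genes were found together far more often in the high pools. Of the 12782 HR- luminal cells with at least 10000 UMIs, 7649 had no UMI of any of the 7 genes after thinning and 3023 had a UMI of a single gene. The cells with 2 and 3 genes numbered 803 and 407, and those with 4, 5, 6 and 7 genes 392, 324, 159 and 25. The number of cells thus changed little from 3 to 5 genes.

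Cells with 4 or more of the genes made up 71.0% (67.4 to 74.4) of tag 2 of the Brca2mut/WT control, 66.4% (61.0 to 71.4) of tag 2 of Brca2mut/WT HU, 23.2% (19.0 to 27.7) of tag 4 of the WT control and 21.5% (15.7 to 28.3) of tag 2 of the WT control. In tags 1 and 3 of the 4 libraries the share was at most 0.601%, in tag 4 of WT HU 6.22%, and in the other 3 pools 0.893 to 2.48%. Only 1 of 1926 basal cells had 4 or more of the genes and none of 455 HR+ cells did, which allows a share of up to 0.807%. In the Brca2mut/WT tag 2 pools just 1.78% and 2.98% of cells had none of the 7 genes, whereas in the wild-type tag 2 and tag 4 pools 27.7% and 32.8% had none. The high wild-type pools thus held both cells with many and cells with none of the genes. On either side of this limit, 407 cells had 3 and 392 had 4 genes. Of all other genes tested, 4.76% were at least 1.5-fold higher and 4.40% at least 1.5-fold lower in cells with 4 or more than in cells with none or 1 in all 4 libraries.

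**Figure D4:**
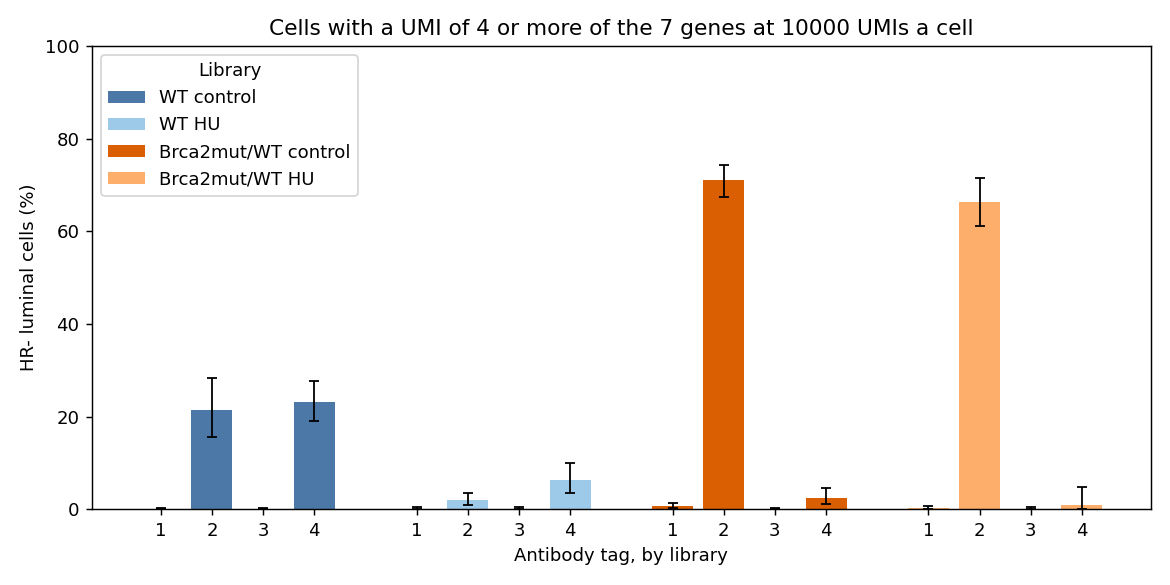
Share of HR- luminal cells, thinned to 10000 UMIs, with a UMI of 4 or more of the 7 genes, by library and antibody tag (linear axis from 0 to 100%), with Clopper-Pearson 95% intervals. The share is 71.0% and 66.4% in tag 2 of the Brca2mut/WT control and HU libraries and 21.5% and 23.2% in tags 2 and 4 of the WT control.

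Detection of 1 gene went with detection of the others. Tmigd1 was found in 35.1% (33.3 to 37.0) of the 2596 cells with a Pipox UMI and in 7.35% (6.85 to 7.88) of those without, and Sez6 in 41.5% and 7.89%. Fetub was found in 72.9% (67.0 to 78.3) of the 255 cells with an Ahsg UMI and in 12.7% (12.1 to 13.2) of those without. These shares cover all pools, so they carry the differences between pools as well as those between cells.

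Over all 14008 HR- luminal cells the Pearson correlation of log2(1 + UMIs per 10000) between 2 members had a median of 0.39 over the 21 pairs, from 0.23 for Ahsg with Limch1 to 0.62 for Tmigd1 with Fetub. The cells share 4 libraries and a common depth scaling, and the correlations are descriptions. When the values were centred within each library and tag, the median was 0.16 and the range 0.07 to 0.35. Pipox with Sez6 was the strongest pair within pools, at 0.35. The median was 0.27 in the WT control, 0.16 in WT HU, 0.43 in the Brca2mut/WT control and 0.41 in Brca2mut/WT HU.

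Single pools differed in how far their cells varied together. In tag 4 of the WT control the median pair had an r of 0.41 over 393 cells. In tag 2 of the Brca2mut/WT control, where nearly every cell had some of the genes, it was 0.13 over 696 cells, and in tags 1 and 3 it was 0.02 to 0.13. The correlation of the mean of the 7 genes with cell depth (log2 UMIs) ran from -0.07 to 0.46 among the pools, the highest being tag 2 of Brca2mut/WT HU.

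With the mean of the other 6 genes, Tmigd1 and Sez6 each had an r of 0.70, and none of the 7538 other genes tested at 10 CPM or more correlated better with those 6. For Fetub the value was 0.65, for Pipox 0.58, for Limch1 0.57, for Cyb5r2 0.44 and for the scarce Ahsg 0.38, with 2, 4, 4, 17 and 35 other genes above them. All 7 members passed an r of 0.2, a level that 3.60% of the other genes reached with the mean of the 7. After centring within library and tag, 6 of the 7 members did, all but Ahsg, and 0.478% of the other genes.

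**Figure D5:**
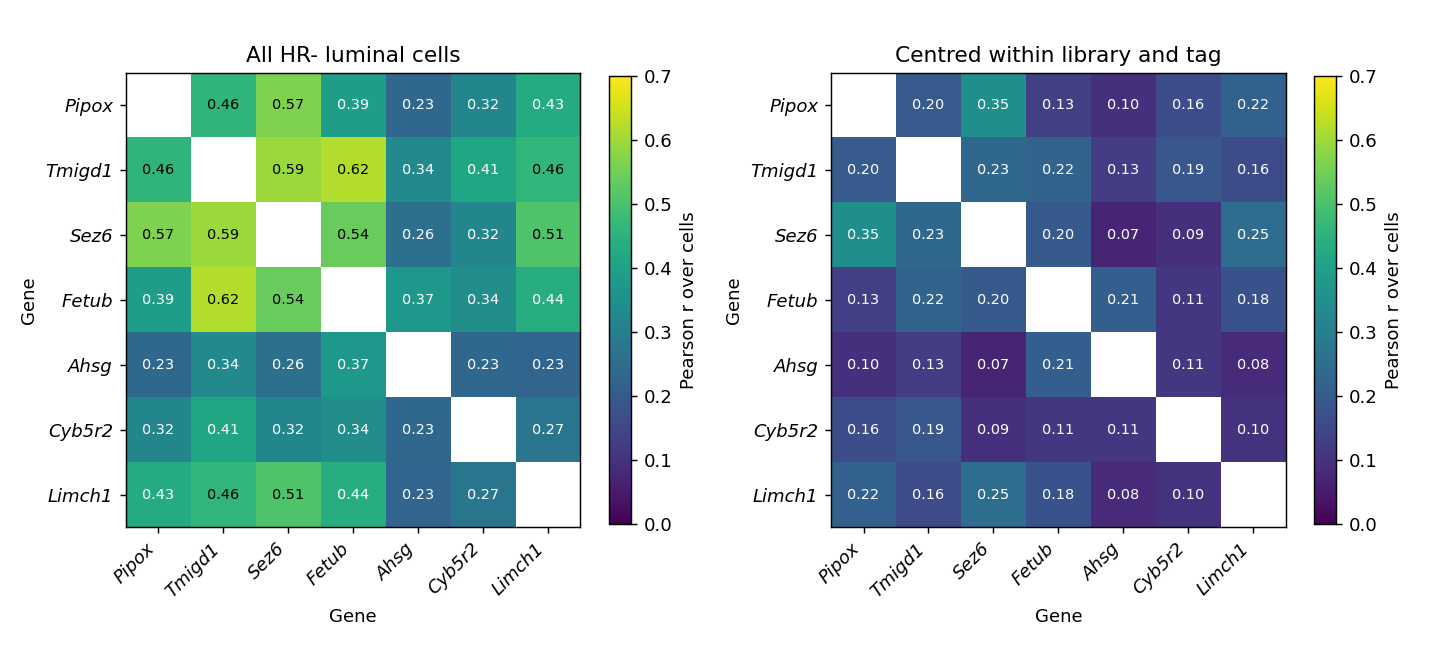
Pearson r over 14008 HR- luminal cells between the 7 genes, as measured and after centring within each library and antibody tag, on a colour scale from 0 to 0.7. The median over the 21 pairs is 0.39 as measured and 0.16 after centring, and Pipox with Sez6 has the highest centred value, 0.35.

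The genes most like the set over HR- luminal cells were Gm48882 (r of 0.69), an antisense RNA gene at chr10:95318247-95324358 on the plus strand, and Tspan1 (0.68), which encodes a tetraspanin membrane protein. They were followed by Plcb4 (0.62), a phospholipase C, Chpt1 (0.59), an enzyme of phosphatidylcholine synthesis, and Tbx3 (0.56), a transcription factor needed for mammary development. Lmod1 (0.54), Sp100 (0.50), Tesc (0.50), Blnk (0.49) and Mfsd4a (0.49) completed the 10. After centring within library and tag the 10 ran from 0.21 for Mfsd4a to 0.42 for Gm48882. Tspan1 was at 582 and 169 CPM in tags 2 and 4 of the WT control and at 587 and 421 CPM in tag 2 of the Brca2mut/WT control and HU libraries, while the lowest pool was at 5.55 CPM. Tbx3 was at 56.9, 48.7, 107 and 81.1 CPM in these 4 pools in the same order, and at 5.76 to 8.80 CPM in tags 1 and 3.

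Over the 16 pools, the genes whose log2 level followed the summed members most closely were Tbx3 (r of 0.99), Uggt1 (0.99), Tspan13 (0.98), Camkk2 (0.98) and Socs2 (0.98), a suppressor of cytokine signalling. Socs2 was at 326 to 464 CPM in the 4 high pools and at 107 to 121 CPM in tags 1 and 3. Socs2 and Gm48882 both lie on chr10, Socs2 at chr10:95385362-95417180 on the minus strand. The pools share libraries, and their 4 high points set these values.

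At the other end stood Igfbp5 (r of -0.48), which binds insulin-like growth factors, Anxa2 (-0.47) and the ribosomal protein genes Rpl23 (-0.44), Rps16 (-0.42) and Rpl13 (-0.42). Of the 50 genes with the lowest r, 30 encode ribosomal proteins. Igfbp5 was at 201 and 356 CPM in tag 2 of the Brca2mut/WT control and HU libraries, at 1134 and 1707 CPM in tags 2 and 4 of the WT control, and at 1841 to 3549 CPM in the other pools.

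Neighbours on the chromosome mostly did not follow the members. Of 31 annotated neighbours of the 3 loci, 12 were at 10 CPM or more, and 1 of them, Cpd, a carboxypeptidase gene beside Tmigd1, passed an r of 0.2 with the set (0.37). For the 5 expressed neighbours of Pipox and Sez6 r ran from -0.08 to 0.08, and for the 3 beside Ahsg and Fetub from -0.04 to 0.19. Kng2, a kininogen gene of the cystatin family that lies beside Fetub, had an r of 0.26 at a level of only 1.95 CPM.

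Genes of the pathways the members belong to were examined as lists, which were drawn up knowing earlier results. Of 14 genes of lysine, pipecolate and sarcosine metabolism, 4 were at 10 CPM or more and none reached an r of 0.2 with the set (3.60% of all genes), the highest being Gcdh at 0.07 and Chdh at 0.04. Of 27 peroxisome genes 21 were expressed at that level and 2 reached an r of 0.2, Crot (0.30), a carnitine acyltransferase, and Agps (0.29), an enzyme of ether lipid synthesis. After centring within library and tag these 2 were at 0.20 and 0.28. The median of the expressed peroxisome genes was 0.05, beside 0.03 for all other genes.

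None of 3 expressed cystatin-family genes, 5 genes of the cytochrome b5 system or 10 genes of myosin II and Limch1's relatives reached 0.2. Among the cystatin-family genes, Cst3 had an r of -0.34. Of 7 expressed genes of microvilli and their scaffolds 1 reached 0.2, Eps8 (0.24, or 0.11 after centring within library and tag), an actin-bundling protein. Sez6l, Sez6l2 and Tmigd3, the relatives of Sez6 and Tmigd1, were all below 10 CPM. Of 18 expressed genes of other luminal programmes 5 reached 0.2: Slc12a2 (0.49), a chloride cotransporter, Tspan8 (0.43), Ifit3 (0.39), Thrsp (0.36) and the water channel gene Aqp5 (0.30). After centring within library and tag their values were 0.20, 0.22, 0.21, 0.15 and 0.22. None of the 7 markers of HR- luminal identity reached 0.2, and of 3 expressed HR+ markers only Tbx3 did.

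The set had been labelled as a non-cycling state, and its levels in cycling cells had no direction common to all 7 genes over the libraries. The number of the 7 genes with a lower CPM in cycling than in non-cycling HR- luminal cells was 0 in the WT control, 3 in WT HU, 3 in the Brca2mut/WT control and 1 in Brca2mut/WT HU. No gene was lower in all 4, where 27.1% of all genes tested were, and this count is read as a value only. Sez6, Fetub and Limch1 were higher in cycling cells of all 4 libraries, and the share of all genes that were so was not computed. Sez6 was at 63.4 against 27.6 CPM in the WT control and at 81.5 against 54.9 CPM in Brca2mut/WT HU. The intervals overlapped for Fetub in the WT control and the Brca2mut/WT control, and for Limch1 in both Brca2mut/WT libraries. Cycling cells were those with at least 200 CPM of 7 mitotic genes summed, 326, 259, 356 and 256 cells in the 4 libraries. In the WT control Pipox was at 98.1 CPM (91.2 to 105.3) in cycling and 51.9 CPM (50.4 to 53.3) in other cells, and in Brca2mut/WT HU at 103.9 and 62.7 CPM. In WT HU the levels were 26.4 and 26.5 CPM, within their intervals. Cyb5r2 was lower in cycling cells of 3 libraries, with 2.76 against 4.89 CPM in WT HU, 14.1 against 19.0 CPM in the Brca2mut/WT control and 13.98 against 15.5 CPM in Brca2mut/WT HU, where the intervals overlapped. Tmigd1 in the Brca2mut/WT control was also lower, with 94.3 CPM (87.4 to 101.6) in cycling and 112 CPM (109.9 to 114.6) in other cells. The share of cycling cells was 11.4 to 19.8% in the 4 high pools and 4.74 to 6.52% in tags 1 and 3 of those libraries. In the 4 low pools of tags 2 and 4 it was 9.52 to 10.98%, between these ranges. The part of the cycling share in these values was not tested.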

How the data were processed

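Droplet single-cell RNA sequencing was performed on 4 libraries of mouse mammary organoids, 1 per combination of genotype and treatment. The authors aligned reads to mm10 (GRCm38) and the deposited values are UMI counts per gene and cell, whole numbers without normalization, with counts of 4 antibody tags. The submitters' processing notes name Cell Ranger 6.0.2, Seurat 4.0 and R 4.1.3, while the headers of the deposited tables name a later Cell Ranger. The 7 genes and the gene lists were chosen with earlier results of these data known.

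Cells with 1000 to 6000 detected genes and under 5% mitochondrial UMIs were kept. No doublet caller was applied. Lineages were set by Krt14 and Areg as described above, and cells meeting neither definition were left out of the lineages. A cell was given to a tag that held at least 80% of its tag UMIs. UMIs were summed per library, lineage and tag, divided by the gene total of the same cells, without tags, and scaled to CPM. No test between conditions was made. Log2 ratios used a pseudocount of 1 CPM, and the share of all genes past 1.5-fold was taken over genes with at least 10 CPM in 1 of the libraries compared. The filter on low values was passed by 5 of the 7 genes for WT HU against the WT control and by 6 in the other 3 comparisons, and all 7 are reported. Totals of HR- luminal UMIs ran from 71024638 to 103837852 per library, so that 3 UMIs correspond to 0.0289 to 0.0422 CPM. Reads behind UMIs of 1 cell are not independent, and intervals cover counting error only.

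Genes other than members were named by a rule: the 10 highest and 5 lowest correlations over HR- luminal cells, the 5 highest over the 16 pools, the 5 annotated genes on each side of the 3 loci, and from each list the 2 highest and any with r of at least 0.2. Other genes are said to have been chosen after their values were seen. These include the markers Elf5, Kit, Cd14, Lalba, Csn3, Mfge8, Aldh1a3 and the named differences between cells with many and few members.

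Alternatives covered the cell filter, cells with 2 or more tags, lineage limits and markers, cells with shared barcodes, TMM scaling, pseudocounts, each pool left out, tags 1 and 3 with or without cells of no clear tag, non-cycling cells only, centring, Spearman correlation, thinning and each library alone. Recovery of known fold changes and correlations was checked on simulated data. Positions came from GENCODE M21 and promoter windows from RefSeq. Calculations were made in Python 3.11.15 with numpy 2.4.6, scipy 1.17.1 and pandas 2.3.3, figures in matplotlib 3.10.9, and TMM factors in R 4.3.3 with edgeR 4.0.16. Not every gene of the lists is reported here.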

Additional observations from a re-analysis of the deposited data

Results flagged for a closer look

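Pipox lay on opposite sides of its control level after HU in the 2 genotypes, past 1.5-fold only in wild type. Its HR- luminal level was lower in WT HU than in the WT control, by a log2 ratio of -1.06 (-1.13 to -0.99), and its log2 ratio of Brca2mut/WT HU to the Brca2mut/WT control was 0.15 (0.09 to 0.20), within the limit. With 1 library per condition the difference between genotypes was not tested. The wild-type value rests on 2 pools: in tags 1 and 3 alone Pipox was at 24.4 CPM in the WT control and 21.02 CPM in WT HU, and at 16.7 and 18.9 CPM in the Brca2mut/WT control and HU libraries.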

How the results depend on the processing

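No paired analysis was possible because each condition is a single library and the tags have no key. The counts of 7 members highest in HR- luminal cells and of 0 lower in cycling cells were the same under every alternative run on them, the removal of cells with shared barcodes, which was chosen after seeing the data, included. The count of 7 with r of at least 0.2 was 6 after centring within library and tag and in WT HU alone. With no upper limit on detected genes and under 10% mitochondrial UMIs, 1 gene instead of 3 passed 1.5-fold for HU in Brca2mut/WT. The median correlation of 0.39 was 0.16 when centred within library and tag and 0.16 in WT HU alone. Leaving out each pool in turn, the count of genes past 1.5-fold ran from 1 to 6 for HU in wild type, from 3 to 7 for untreated Brca2mut/WT against wild type, from 2 to 7 for HU in Brca2mut/WT (5 without tag 1 or 3 and 7 without tag 2 of the Brca2mut/WT control, and 7 without tag 2 of Brca2mut/WT HU) and from 0 to 7 for Brca2mut/WT against wild type after HU, with the lowest values without tag 4 of the WT control, tag 2 of the Brca2mut/WT control and tag 2 of Brca2mut/WT HU for the first, second and last. With tags 2 and 4 left out of every library, which was chosen after seeing the data, these 4 counts were 1, 4, 0 and 2, and in tags 1 and 3 alone, chosen likewise, 0, 2, 0 and 1. The log2 ratio of Sez6 between the untreated genotypes was then -0.25 and -0.11, and in tags 1 and 3 alone Limch1 for HU in wild type was at 0.30 and Pipox between the genotypes after HU at -0.14. Among values past the limit, directions turned in 12 cases in all. Between the untreated genotypes, leaving out 1 pool gave -0.31 to 3.29 for Tmigd1, -1.49 to 1.71 for Sez6 and -1.08 to 1.35 for Limch1, the lowest without tag 2 of the Brca2mut/WT control. For HU in Brca2mut/WT the ranges were -3.66 to 1.78 for Tmigd1, -2.76 to 1.20 for Fetub and -2.10 to 0.76 for Ahsg, the highest without the same pool. For the genotypes after HU they were -0.22 to 1.82 for Pipox and -0.0797 to 1.80 for Limch1, the lowest without tag 2 of Brca2mut/WT HU. Of all values for single genes, 634 kept their call or moved only within their interval or the spread between libraries, and 68 moved further. Another 52 no longer passed the limit, 18 newly passed it and 12 turned after having passed it. A turn of direction that stayed within the limit was counted among the 634, and one that ended past it among the 68. The cause was not tested beyond the removal of the pools themselves. The pools may differ in animal, replicate or passage, for which no key was given, and counting intervals do not include that spread.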

Other observations

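HR- luminal cells with a UMI of 4 or more of the 7 genes were set beside those with none or 1, in every library separately. The cells were defined by the members, so this is a description, and the genes below were named after their values were seen. The 2 classes numbered 134 and 3457 cells in the WT control, 29 and 2976 in WT HU, 501 and 2320 in the Brca2mut/WT control and 236 and 1919 in Brca2mut/WT HU. Higher and lower mean at least 1.5-fold in all 4 libraries, which held for 4.76% and 4.40% of all other genes. Of 21 peroxisome genes 5 were higher in the first class and none was lower. Agps, which makes ether lipid precursors, was at 377 against 122 CPM in the WT control, 339 against 107 in WT HU, 236 against 105 in the Brca2mut/WT control and 219 against 109 in Brca2mut/WT HU. Crot was at 125 to 170.5 CPM in cells with many of the genes and 58.6 to 68.1 CPM in those with few. Phyh, Hsd17b4 and Pex11a, genes of fatty acid oxidation and peroxisome growth, completed the 5. Of 6 genes of lysine, pipecolate and sarcosine metabolism expressed in either class, none passed in either direction.

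Of 4 expressed fetuin and cystatin genes, 1 was higher, Kng2, and 1 was lower, Cst3. Kng2 was at 8.58 to 16.6 CPM in cells with many of the genes and at 0.835 to 0.969 CPM in those with few. Cst3 was at 106 against 471 CPM in the WT control, 158 against 520 in WT HU and 134 against 453 in the Brca2mut/WT control. Of 18 genes of other luminal programmes, 6 were higher in all 4 libraries, Slc12a2, Aqp5, Tspan8, Thrsp, Insig1 and Ifit3. Lalba, Smr2, Cck, H2-Ab1 and Aldh1a3 from the same list were lower. Slc12a2 was at 549 against 167, 669 against 190.2, 1086 against 193 and 916 against 195 CPM in the libraries in the order above. The milk protein gene Lalba was at 96.9 against 364, 73.2 against 593, 78.9 against 407 and 49.1 against 759 CPM. Among HR- luminal markers 3 of 7 were lower, Lalba, Mfge8 and Aldh1a3, and none was higher. Among 5 expressed HR+ markers Foxa1 and Tbx3 were higher and Ly6a was lower. Of 10 genes of myosin II and its relatives, Myh9 and Myl9 were lower and none was higher, and of 7 microvillus genes Eps8 was higher and Msn lower.

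The directions within a single pool are given as a description only. The genes had passed in all 4 libraries, and this pool held 89 of the 134 WT control cells with many of the genes. Its values were thus largely part of that choice, and no share of all genes was computed for it. In the Brca2mut/WT control and HU libraries tag 2 held 480 of 501 and 223 of 236 such cells. There the 2 classes largely follow the tags. In tag 4 of the WT control, which held 89 cells with many of the genes and 198 with few, 4 of the 5 peroxisome genes were at least 1.5-fold higher, Pex11a was at 46.0 against 32.5 CPM, and Lalba, Smr2, Cck, H2-Ab1 and Aldh1a3 were lower in the first class. Agps was at 458 against 88.9 CPM there, Slc12a2 at 511 against 208 CPM and Cck at 29.0 against 236 CPM. Cells with many of the genes were deeper, with a median of 29401.5 UMIs and 5353.5 genes against 25817.5 and 4716. Over all libraries they were cycling in 10.8% (8.83 to 12.99) against 6.02% (5.57 to 6.48) of cells. By library the shares were 15.7% against 5.18% in the WT control, 6.90% against 6.32% in WT HU, 9.78% against 6.90% in the Brca2mut/WT control and 10.6% against 5.99% in Brca2mut/WT HU, and the intervals overlapped in WT HU, the Brca2mut/WT control and Brca2mut/WT HU. Cells with 2 or more tags made up 1.67% (0.936 to 2.73) and 1.72% (1.49 to 1.99) over all libraries. In Brca2mut/WT HU these shares were 3.81% (1.76 to 7.12) and 1.77% (1.23 to 2.47), with overlapping intervals. The part of depth and cycling in these differences was not tested.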
